A study of Mus musculus with 10 samples.

Results

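Hedgehog receptors, co-receptors and Gli factors were described across mouse brain tumours and the neural stem cell cultures they are set beside. The members were 9 genes chosen by name: the receptor Ptch1, the co-receptors Cdon, Boc and Gas1, the ligand-binding inhibitor Hhip, the signal transducer Smo, and the transcription factors Gli1, Gli2 and Gli3. Of these, 8 had a row annotated to that gene alone, 1 row each, among 14807 named genes, and Gli2 was not analysed here. RNA was measured on 1-colour Affymetrix mouse exon arrays, and each value is a log2 expression summary of a transcript cluster, the set of probes that covers one gene, so that a difference of 1 is a doubling. All 10 samples came from mice of mixed background (C57, FVB and mainly 129 Ola) homozygous for floxed alleles of p53 and Rb, which adenovirus carrying Cre recombinase (AdCre) can delete.

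The 3 primitive neuroectodermal tumours (PNET, embryonal brain tumours) followed AdCre given into the brain ventricles, as did 1 oligo-astrocytoma, a glioma with mixed glial features. Another 3 oligo-astrocytomas grew from neurospheres that had received AdCre in culture and were then grafted. The cultures were neurospheres labelled p3, floating aggregates of cells from the subventricular zone, the stem cell niche along the ventricles: 2 had received AdCre, and 1 had received an adenovirus with green fluorescent protein (AdGFP) and no Cre. The labels name no driver that would limit Cre to one cell type, and give neither age nor sex. They do not say whether the tumours or cultures of a group stem from different mice, so each p-value reflects only how these samples scatter, which may be technical. Dissected tumours also hold host cells, and in such bulk samples fewer cells of a type and less RNA per cell cannot be told apart.

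Hedgehog ligands bind Ptch1, which otherwise holds Smo inactive. Released Smo acts at the primary cilium to stop the conversion of Gli3 and Gli2 into repressors and to let Gli factors switch on target genes, among them Ptch1, Hhip and Gli1 themselves. Cdon, Boc and Gas1 help Ptch1 to bind ligand, and Hhip sequesters it. In the brain the pathway drives the division of cerebellar granule cell precursors and maintains stem cells of the subventricular zone.

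Ptch1 (transcript cluster 6813844), Gas1 (6813699) and Gli3 (6804974) lie on chromosome 13, Cdon (6988112) on 9, Boc (6845943) on 16, Hhip (6983639) on 8, Smo (6945032) on 6 and Gli1 (6777932) on 10. Array medians lay between 5.87 and 6.06, and array lower quartiles between 4.22 and 4.44. Across transcript clusters, pairs of PNET correlated at 0.957 to 0.974, pairs of oligo-astrocytomas at 0.951 to 0.967 and pairs of spheres at 0.971 to 0.975. The labels were set against marker genes. The mean level of 10 photoreceptor and pineal genes was 8.37 to 9.04 in PNET, 4.27 to 4.33 in oligo-astrocytomas and 4.47 to 4.78 in spheres, and that of 7 oligodendrocyte precursor genes was 5.54 to 5.60, 9.62 to 9.92 and 8.01 to 9.05 in the same groups. Of the targeted genes, Rb1 read 6.65 and 6.34 in AdCre spheres, against 8.49 in the single AdGFP sphere. In tumours it read 7.48, 7.48 and 7.64 in PNET and 6.36 to 7.24 in oligo-astrocytomas. Whether the Rb1 probes lie in the deleted part was not examined.

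The members differed in whether tumours, spheres or only PNET stood apart. Ptch1, Smo and Hhip were lowest in PNET, Cdon was highest in PNET, Gas1 was high in every sphere and low in every tumour, and Boc and Gli1 passed in no comparison. In the comparison of PNET (n = 3) with oligo-astrocytoma (n = 4), which sets the embryonal tumour against the glioma, 1 member rose and 3 fell of the 8 measured. The threshold was an adjusted p under 0.05 in limma, which 16.3% of all named genes passed (7.06% rose and 9.26% fell). The median difference of the members was 0.00, and that of all named genes was -0.01. Against AdCre spheres (n = 2), 2 members rose and 4 fell in PNET, with 37.6% of named genes called (5.43% rose and 32.2% fell). In oligo-astrocytoma against the same spheres 0 rose and 3 fell, with 31.5% of named genes called (3.19% rose and 28.3% fell), so that the members' share there was near that of all genes. Both tumour comparisons share the 2 sphere samples. Their arrays also differ in spread, and the median difference of all named genes from AdCre spheres was -0.36 in PNET and -0.35 in oligo-astrocytoma. Member differences from spheres that passed are therefore also given relative to those medians, as are those of some other genes. Those medians do not remove the difference in spread, so falls of highly expressed genes may still be overstated.

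**Figure D1:**
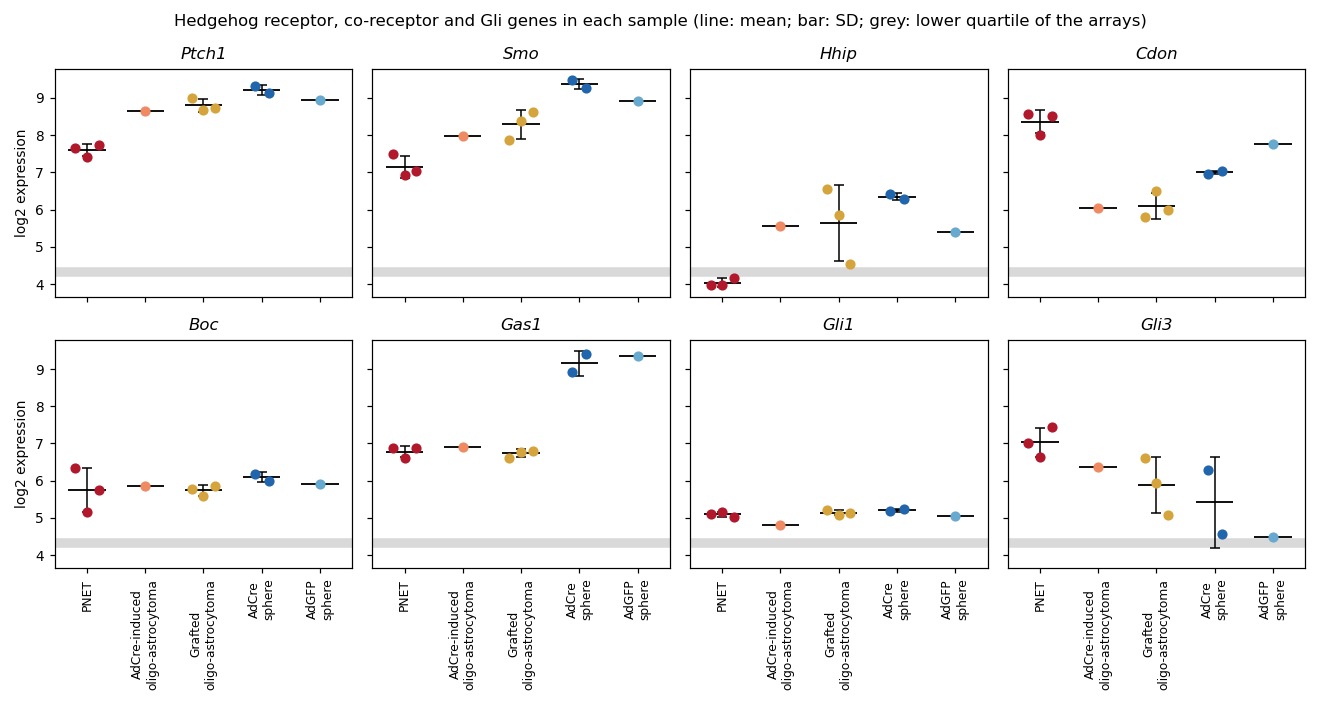
Log2 expression of the 8 measured members (vertical axis) in each sample, grouped as PNET, AdCre-induced oligo-astrocytoma, grafted oligo-astrocytoma, AdCre sphere and AdGFP sphere; points are samples, horizontal lines group means, bars SD and the grey band the range of the arrays' lower quartiles. Cdon sits between 8.01 and 8.58 in PNET and below 6.50 in every oligo-astrocytoma, Gas1 sits between 8.91 and 9.39 in the spheres and below 7 in every tumour, and Gli1 stays between 4.81 and 5.24.

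Ptch1 is both the receptor of the pathway and one of its targets. It read 7.66, 7.42 and 7.74 in PNET, 8.64 in the oligo-astrocytoma that AdCre induced, 9.01, 8.67 and 8.74 in the grafted oligo-astrocytomas, 9.31 and 9.13 in AdCre spheres and 8.95 in the AdGFP sphere. Every PNET lay below every other sample, and the oligo-astrocytomas and the AdGFP sphere overlapped. The mean was 7.61 ± 0.16 in PNET (SD, n = 3) against 8.76 ± 0.17 in oligo-astrocytoma (SD, n = 4), a log2 difference of -1.16 ± 0.16 (SE), or 2.23-fold lower in PNET (adjusted p = 0.00182). Against AdCre spheres, at 9.22 ± 0.12 (SD, n = 2), Ptch1 fell by 1.61 ± 0.19 on the log2 scale in PNET, or by 1.25 relative to the median named gene (adjusted p = 0.000381). Between oligo-astrocytoma and AdCre spheres the difference was -0.46 ± 0.18 and did not pass (adjusted p = 0.0847, 95% interval -0.87 to -0.04), and it was -0.10 relative to the median named gene and 0.07 after quantile normalization. The PNET difference from oligo-astrocytoma passed without any single sample. When the glioma side held just the AdCre-induced tumour, raised in the same way as the PNET, it was -1.03 ± 0.25 and did not pass (adjusted p = 0.0555).

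Smo carries the signal from Ptch1 into the cell. It read 7.49, 6.92 and 7.04 in PNET, 7.99 in the oligo-astrocytoma that AdCre induced, 7.87, 8.38 and 8.63 in the grafted ones, 9.47 and 9.27 in AdCre spheres and 8.93 in the AdGFP sphere. The 3 kinds of sample did not overlap, with PNET lowest, oligo-astrocytoma between and spheres highest. In PNET, Smo fell by 1.07 ± 0.23 against oligo-astrocytoma (adjusted p = 0.0148) and by 2.22 ± 0.27 against AdCre spheres (adjusted p = 0.000432), which is 4.66-fold lower than in spheres and -1.86 relative to the median named gene. In oligo-astrocytoma it fell by 1.15 ± 0.26 against AdCre spheres (adjusted p = 0.00905), or by 0.80 relative to the median. The difference between the tumour types was no longer called once PNET replicate 2 (adjusted p = 0.0618) or PNET replicate 3 (adjusted p = 0.0624) was left out, or with the AdCre-induced tumour alone (-0.84, adjusted p = 0.235). The difference of oligo-astrocytoma from spheres did not pass after quantile normalization (-0.62, adjusted p = 0.110) or without AdCre sphere replicate 1 (adjusted p = 0.0717).

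Hhip, the membrane protein that binds Hedgehog ligands and is induced by them, read 3.99, 3.97 and 4.17 in PNET, below the lower quartile of each of those 3 arrays, so that its difference may be understated there. It read 5.56 in the oligo-astrocytoma that AdCre induced, 6.56, 5.85 and 4.55 in the grafted ones, 6.41 and 6.28 in AdCre spheres and 5.40 in the AdGFP sphere. All PNET lay below all other samples, while the oligo-astrocytomas spanned the sphere values. Hhip fell by 1.58 ± 0.39 in PNET against oligo-astrocytoma (adjusted p = 0.0275) and by 2.30 ± 0.46 against AdCre spheres (adjusted p = 0.00459; -1.94 relative to the median named gene). The first of these did not pass in 5 of the 7 fits that left out a sample, namely without PNET replicate 1, 2 or 3 (adjusted p = 0.0685, 0.0864 and 0.0742), the AdCre-induced tumour (0.0509) or grafted replicate 5 (0.0656), nor did it with the AdCre-induced tumour alone (-1.52, adjusted p = 0.227). The oligo-astrocytomas did not pass against AdCre spheres (-0.72 ± 0.44, 95% interval -1.71 to 0.27, adjusted p = 0.239).

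Glial and stem cell markers were also lower in PNET. The 8 astrocyte genes averaged 5.38 to 6.14 in PNET, against 7.74 to 8.02 in oligo-astrocytomas, and 4 fell. Of 6 neural stem genes 4 fell as well, where 9.26% of all named genes fell. The part of glial and stem cells in the lower Ptch1, Smo and Hhip of PNET was not tested.

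Among the co-receptors, Cdon, a transmembrane protein of the immunoglobulin superfamily, read 8.58, 8.01 and 8.51 in PNET, 6.05 in the oligo-astrocytoma that AdCre induced, 5.81, 6.49 and 5.98 in the grafted ones, 6.97 and 7.03 in AdCre spheres and 7.76 in the AdGFP sphere. The order of the groups was PNET, AdGFP sphere, AdCre spheres and oligo-astrocytomas, with no overlap between neighbours. Cdon was 2.29 ± 0.21 higher in PNET than in oligo-astrocytoma (4.88-fold, adjusted p = 0.000206), and the difference passed in all 15 alternatives, with adjusted p between 6.96e-05 and 0.00783. It was 1.37 ± 0.25 higher in PNET than in AdCre spheres (adjusted p = 0.00299), or 1.73 relative to the median named gene. Against these spheres Cdon passed in 11 of 12 alternatives, and did not when sample number was added to the model (adjusted p = 0.0505). In oligo-astrocytoma it fell by 0.92 ± 0.24 against AdCre spheres (adjusted p = 0.0176), or by 0.56 relative to the median named gene, and that call was lost after quantile normalization (-0.62, adjusted p = 0.0727), without AdCre sphere replicate 1 or 2 (adjusted p = 0.0810 and 0.0933) and with the AdCre-induced tumour alone (0.108).

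Sequences around the annotated start are shown for Ptch1 and Cdon, the receptor and co-receptor that moved in opposite directions between PNET and oligo-astrocytoma. Whether transcription begins at these starts in these samples was not examined. The bases from the last ATG of the Cdon window may be coding sequence, so this window may lie downstream of the promoter. Each window runs from 250 bases before to 50 bases after the gene's start in RefSeq on build GRCm38.p6, is written 5′ to 3′ on the gene's strand, and has CpG dinucleotides in capitals. Ptch1 lies at chr13:63565686-63565985 on the minus strand and Cdon at chr9:35451826-35452125 on the plus strand.
Ptch1: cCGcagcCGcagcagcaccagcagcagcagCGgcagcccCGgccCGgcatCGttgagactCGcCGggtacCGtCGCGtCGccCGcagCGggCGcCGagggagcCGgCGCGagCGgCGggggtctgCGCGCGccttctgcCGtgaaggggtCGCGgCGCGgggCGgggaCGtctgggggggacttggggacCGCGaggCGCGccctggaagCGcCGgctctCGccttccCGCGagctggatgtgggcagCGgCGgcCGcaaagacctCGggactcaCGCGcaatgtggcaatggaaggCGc
Cdon: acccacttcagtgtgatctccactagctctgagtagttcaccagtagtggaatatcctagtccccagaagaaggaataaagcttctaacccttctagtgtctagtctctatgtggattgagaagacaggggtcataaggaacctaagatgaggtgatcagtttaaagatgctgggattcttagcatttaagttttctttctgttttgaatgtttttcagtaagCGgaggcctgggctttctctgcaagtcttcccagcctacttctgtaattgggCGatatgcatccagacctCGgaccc

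The Ptch1 window holds 47 CpG and is 76.3% G and C, and the Cdon window holds 3 CpG and is 44.7% G and C. Among 32851 such windows listed, 31.4% hold at most 3 CpG, and the median is 7. These counts describe the windows and not the promoters in use. The other members with a window, Gas1, Hhip, Smo and Gli3, hold 17, 30, 17 and 39 CpG. The consensus bound by Gli proteins, GACCACCCA, was searched on both strands with at most 1 mismatch, and 6.74% of all windows hold such a match (0.253% an exact one). None of the 6 members' windows does, which says only that these letters are not in these windows. Boc and Gli1 were not in the table.

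Boc, the closest relative of Cdon and its partner in ligand binding, passed in no comparison. It read 6.34, 5.17 and 5.76 in PNET, 5.86 in the oligo-astrocytoma that AdCre induced, 5.79, 5.58 and 5.86 in the grafted ones, 6.19 and 6.0 in AdCre spheres and 5.92 in the AdGFP sphere. The PNET alone spanned the values of all other samples. The difference of PNET from oligo-astrocytoma was -0.02 ± 0.25 (95% interval -0.58 to 0.55, adjusted p = 0.984), and that from AdCre spheres was -0.34 ± 0.30 (95% interval -1.02 to 0.34, adjusted p = 0.417). Oligo-astrocytoma against AdCre spheres gave -0.32 ± 0.29 (adjusted p = 0.416), or 0.03 relative to the median named gene.

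Gas1, a lipid-anchored co-receptor, separated cultures from tumours. It read 6.88, 6.60 and 6.87 in PNET, 6.90 in the oligo-astrocytoma that AdCre induced, 6.62, 6.78 and 6.81 in the grafted ones, 8.91 and 9.39 in AdCre spheres and 9.34 in the AdGFP sphere. The 7 tumours lay within 0.30 of each other, the lowest sphere was 2.01 above the highest tumour, and the tumour types overlapped. Gas1 fell by 2.37 ± 0.20 in PNET (5.15-fold, adjusted p = 9.33e-05) and by 2.37 ± 0.19 in oligo-astrocytoma (5.18-fold, adjusted p = 0.000222) against AdCre spheres, which are 2.01 and 2.02 beyond the median named gene. It passed in all 12 alternatives of the PNET comparison and all 14 of the oligo-astrocytoma comparison. Between the tumour types the difference was 0.01 ± 0.17 (95% interval -0.38 to 0.39, adjusted p = 0.988).

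Of the lists of cell markers, those of neural stem cells, astrocytes, microglia, endothelium, and vessel wall cells with fibroblasts also separated tumours from spheres. Those of photoreceptors and oligodendrocyte precursors, given above, separated the tumour types, as did others, among them those of neural stem cells and astrocytes. The astrocyte genes averaged 8.30 to 9.90 in AdCre spheres and 8.55 in the AdGFP sphere, above every tumour. The 10 vessel wall and fibroblast genes averaged 6.28 to 6.96 in PNET and 6.41 to 8.09 in oligo-astrocytomas. In AdCre spheres they averaged 5.54 to 5.64, and in the AdGFP sphere 5.20. The mean level of 6 measured neural stem genes was 6.24 to 6.55 in PNET and 8.20 to 8.60 in oligo-astrocytomas, against 10.16 to 10.49 in AdCre spheres and 10.36 in the AdGFP sphere, and 6 of 6 fell in PNET and 5 of 6 in oligo-astrocytoma. The 8 microglial genes averaged 6.09 to 7.01 in PNET and 6.68 to 8.64 in oligo-astrocytomas, against 4.54 to 4.67 in AdCre spheres and 4.50 in the AdGFP sphere. Of these, 3 rose in PNET and 8 in oligo-astrocytoma. Against AdCre spheres 5.43% of all named genes rose and 32.2% fell in PNET, and 3.19% rose and 28.3% fell in oligo-astrocytoma. The 8 endothelial genes averaged 5.85 to 6.22 in PNET and 6.25 to 6.77 in oligo-astrocytomas, against 4.73 to 4.82 in AdCre spheres and 4.51 in the AdGFP sphere, with 4 and 7 rises. The part of these cells in the lower Gas1 and Smo of tumours was not tested.

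**Figure D2:**
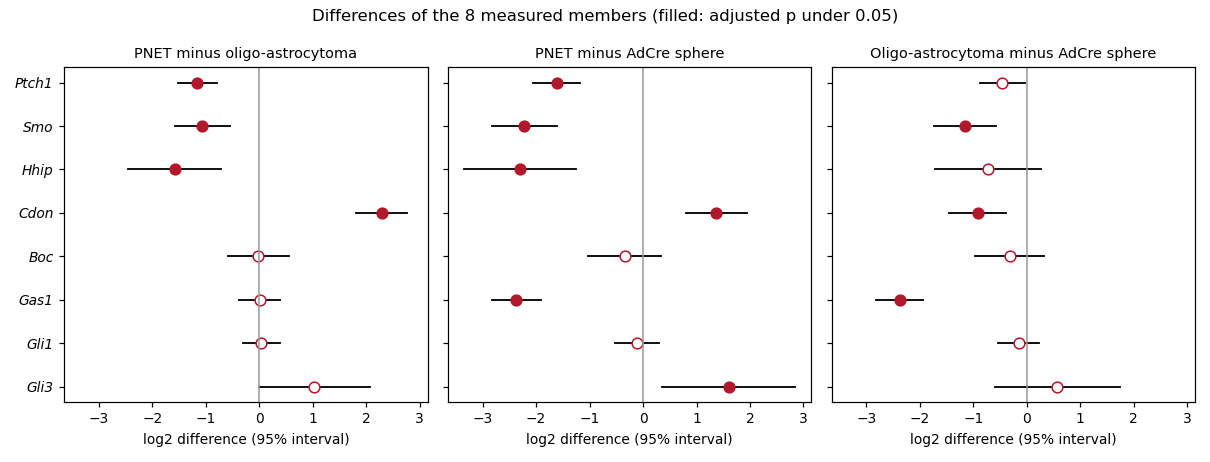
Log2 differences (horizontal axis) of the 8 measured members for PNET minus oligo-astrocytoma, PNET minus AdCre sphere and oligo-astrocytoma minus AdCre sphere, with 95% intervals as lines and filled points for an adjusted p under 0.05. Cdon is the one member to the right of 0 and past the threshold in the first panel, and Gas1 lies at -2.37 in both comparisons with spheres and at 0.01 between the tumours.

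The Gli factors carry the signal to the genes. Gli1, an activator whose own transcript is a common readout of the pathway, read 5.10, 5.16 and 5.03 in PNET, 4.81 in the oligo-astrocytoma that AdCre induced, 5.20, 5.08 and 5.14 in the grafted ones, 5.18 and 5.24 in AdCre spheres and 5.05 in the AdGFP sphere. Its range over all samples was 0.43, and every value lay below the median of its array and above the lower quartile. The difference of PNET from oligo-astrocytoma was 0.04 ± 0.15 (95% interval -0.30 to 0.38, adjusted p = 0.921), that of PNET from AdCre spheres -0.11 ± 0.18 (95% interval -0.52 to 0.29, adjusted p = 0.654) and that of oligo-astrocytoma from AdCre spheres -0.15 ± 0.17 (95% interval -0.54 to 0.23, adjusted p = 0.525). In both comparisons where Ptch1 and Hhip, which are targets too, were called, Gli1 was not.

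Gli3, the member of the family that acts chiefly as a repressor when no ligand is present, read 7.01, 6.65 and 7.43 in PNET, 6.37 in the oligo-astrocytoma that AdCre induced, 6.60, 5.94 and 5.09 in the grafted ones, 6.29 and 4.56 in AdCre spheres and 4.49 in the AdGFP sphere. PNET lay above all other samples, by 0.05 over the highest oligo-astrocytoma, and the AdCre spheres were 1.73 apart. Gli3 was 1.60 ± 0.55 higher in PNET than in AdCre spheres (adjusted p = 0.0471; 1.96 relative to the median named gene). Without AdCre sphere replicate 2 the difference was 0.74 (adjusted p = 0.365), and without AdCre sphere replicate 1 it was 2.47 (adjusted p = 0.0172). It did not pass without PNET replicate 1, 2 or 3 (adjusted p = 0.0855, 0.0620 and 0.124) or in a fit of the compared groups only (0.0610). Between PNET and oligo-astrocytoma the difference was 1.03 ± 0.46 and did not pass (95% interval -0.01 to 2.07, adjusted p = 0.203).

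Gli3 and Hhip also varied within groups, Gli3 in AdCre spheres and both genes in oligo-astrocytomas. AdCre sphere replicate 1, with the higher Gli3, also had the higher glial markers: the mean of 8 astrocyte genes was 9.90 in replicate 1 and 8.30 in replicate 2, and that of 7 myelinating oligodendrocyte genes was 7.30 in replicate 1 and 6.53 in replicate 2. Among the oligo-astrocytomas the oligodendrocyte genes averaged 8.21 in the AdCre-induced tumour and 10.33, 8.95 and 7.55 in grafted replicates 4, 5 and 6. Hhip read highest in grafted replicate 4 and lowest in grafted replicate 6, in the order of that list, and Gli3 was likewise highest and lowest in those grafts. With 4 tumours no relation was tested, and the part of oligodendrocytes in these values was not tested. In PNET the list averaged 5.68 to 5.86, below every oligo-astrocytoma, and there Hhip was lowest of all samples while Gli3 was highest. The spheres also lay below every oligo-astrocytoma, at 7.30 and 6.53 with AdCre and 6.49 with AdGFP. Their Hhip, at 6.41, 6.28 and 5.40, was nonetheless within the range of the oligo-astrocytomas.

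**Figure D3:**
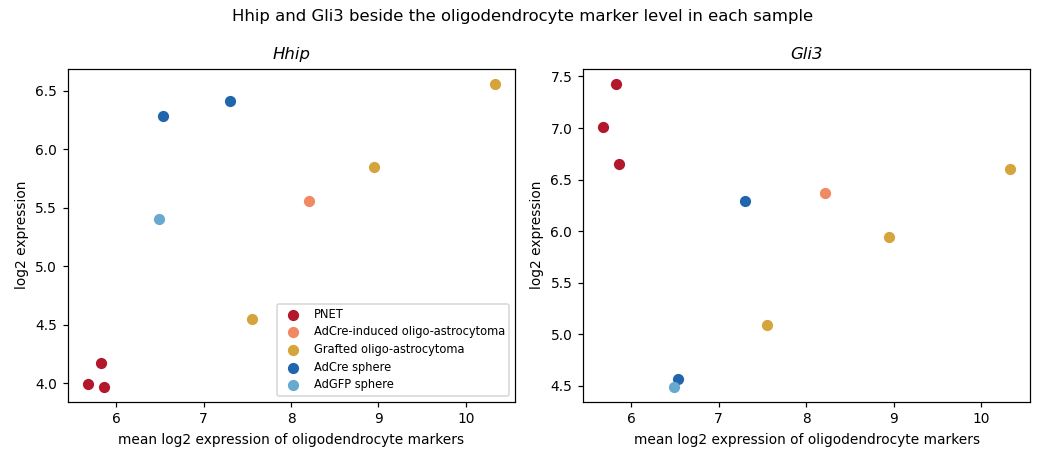
Log2 expression of Hhip and Gli3 (vertical axes) against the mean log2 expression of 7 oligodendrocyte markers (horizontal axes), with 1 point per sample and colours for the 5 groups. Among the oligo-astrocytomas grafted replicate 4, at 10.33, has the highest Hhip and Gli3 and grafted replicate 6, at 7.55, the lowest, while PNET lie at the left with low Hhip and high Gli3. The spheres, at 6.49 to 7.30, lie left of every oligo-astrocytoma with Hhip in the same range.

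The comparison of AdCre spheres (n = 2) with the AdGFP sphere (n = 1) asks what Cre-mediated deletion changed in culture. In limma 0 of the 8 members passed, 1 had an unadjusted p under 0.05, and 0.00675% of named genes passed (2.49% at that unadjusted p). That member was Cdon, at 6.97 and 7.03 in AdCre spheres and 7.76 in the AdGFP sphere, a difference of -0.76 ± 0.34 in limma (unadjusted p = 0.0492, adjusted p = 0.9997). Hhip differed by 0.95 ± 0.62 and Gli3 by 0.94 ± 0.74, and the Gli3 difference was 0.07 without AdCre sphere replicate 1. The single AdGFP sphere was assumed to vary like the other groups. It shares the sample number 1 with an AdCre sphere, and the labels do not say whether both stem from the same culture.

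The AdCre-induced oligo-astrocytoma (n = 1) against the grafted ones (n = 3) asks whether the route of tumour formation matters within one tumour type. In limma 0 of the 8 members passed, 0 had an unadjusted p under 0.05, and 0.405% of named genes passed (7.49% at that unadjusted p). The largest difference was that of Gli3 at 0.49 ± 0.71 (95% interval -1.14 to 2.13), and Gli1 was -0.34 ± 0.21 (95% interval -0.81 to 0.14), with the AdCre-induced tumour outside the range of the grafts. Ptch1, at 8.64 against 8.81 ± 0.18 (SD, n = 3), and Cdon, at 6.05 against 6.09 ± 0.35 (SD, n = 3), differed by less than the spread between grafts. The AdCre-induced tumour also lay just outside the range of the grafts for Ptch1 (lowest graft 8.67) and Gas1 (6.90, highest graft 6.81).

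Of the members with an SD of at least 1 over the 10 samples, the 3 genes with the closest profile were found for each, by the root mean square difference of log2 values centred on each gene's mean. For Cdon they were Katnal2 (0.27), Slc35f3 (0.31) and the imprinted gene Peg3 (0.32), which averaged 9.31 in PNET, 7.38 in oligo-astrocytoma, 8.57 in AdCre spheres and 8.90 in the AdGFP sphere. For Gas1 they were Spsb4 (0.14), 1110008P14Rik (0.17) and the vitamin B6 kinase Pdxk (0.20), at 6.86 in PNET and 6.85 in oligo-astrocytoma, against 9.06 in AdCre spheres and 9.23 in the AdGFP sphere. The nearest profiles to Hhip were those of Fkbp14 (0.33), the splicing regulator Ptbp3 (0.33) and Dbndd2 (0.34), and the nearest to Gli3 were those of Tceal1 (0.39), Clvs1 (0.45) and the kinase Vrk2 (0.45). The distances for Gas1 were the shortest of the 4 members.

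The rest of the pathway was followed through 46 measured genes in 5 groups by role. Between PNET and oligo-astrocytoma 2 rose and 5 fell, with a median difference of -0.12, against 7.06% of named genes rising and 9.26% falling. Against AdCre spheres 2 rose and 18 fell in PNET (median -0.60, or -0.24 relative to all named genes), where 5.43% and 32.2% of named genes did so. In oligo-astrocytoma 1 rose and 16 fell against AdCre spheres (median -0.35, or 0.00 relative to all named genes), where 3.19% and 28.3% of named genes did so. In the comparisons of AdCre with AdGFP spheres and of AdCre-induced with grafted oligo-astrocytoma 0 of the 46 passed in limma, with 1 and 6 at an unadjusted p under 0.05.

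Among ligands, Shh read 4.79, 4.91 and 4.81 in PNET, 4.87 in the oligo-astrocytoma that AdCre induced, 4.93, 4.63 and 4.81 in the grafted ones, 5.58 and 5.33 in AdCre spheres and 6.12 in the AdGFP sphere. Every sphere lay above every tumour, and 9 of the 10 values were below the median of their array, all but that of the AdGFP sphere. Shh fell by 0.62 ± 0.18 in PNET (adjusted p = 0.0233) and by 0.65 ± 0.17 in oligo-astrocytoma (adjusted p = 0.0175) against AdCre spheres. Relative to the median named gene the falls were 0.26 in PNET and 0.29 in oligo-astrocytoma. Without AdCre sphere replicate 1 neither passed (adjusted p = 0.160 in PNET and 0.140 in oligo-astrocytoma). The oligo-astrocytoma call was also lost with the AdCre-induced tumour alone (0.146), and the PNET call without PNET replicate 3 (0.0581), with arrays centred on their median (0.0767) or in the compared groups only (0.0508). Dhh, the ligand of testis and nerve sheath, ranged from 4.39 to 5.25 and passed in no comparison, and Ihh was not analysed here. Hhat, which adds palmitate to the ligands, was 0.62 ± 0.20 higher in PNET than in AdCre spheres (adjusted p = 0.0399), a call that, of the 5 fits without a sample, held only without PNET replicate 1 (highest adjusted p = 0.201, without AdCre sphere replicate 2). It was also lost after quantile normalization (0.0952) and in the compared groups only (0.0923). Disp2, a relative of the ligand release protein Dispatched, was 1.49 ± 0.39 higher in PNET than in oligo-astrocytoma (adjusted p = 0.0366) and fell by 1.92 ± 0.45 in oligo-astrocytoma against AdCre spheres (adjusted p = 0.0106). Of 7 fits without a sample, the first call held only without PNET replicate 1 or grafted replicate 5 (highest adjusted p = 0.137, without PNET replicate 3), and the second was lost without AdCre sphere replicate 2 (0.0945). With the AdCre-induced tumour alone neither Disp2 call held (0.185 against PNET and 0.0669 against spheres), nor did the first with the grafts alone (0.0752).

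In the relay between Smo and the Gli factors, Sufu, which holds Gli proteins in the cytoplasm, fell by 0.88 ± 0.27 in PNET (adjusted p = 0.0287) and by 0.86 ± 0.25 in oligo-astrocytoma (adjusted p = 0.0293) against AdCre spheres. Relative to the median named gene the differences were -0.52 and -0.50. After quantile normalization they were -0.31 and -0.38 (adjusted p = 0.428 and 0.312). Without a sample, the PNET call held only without PNET replicate 1, and the oligo-astrocytoma call was lost without the AdCre-induced tumour (0.0574), that is with the grafts alone, or AdCre sphere replicate 1 or 2 (0.146 and 0.100). The PNET call for Sufu was also lost with arrays centred on their median (0.0589), and the oligo-astrocytoma call in the compared groups only (0.0519) and with the AdCre-induced tumour alone (0.0857). Kif3a, a motor subunit needed to build the cilium, read 6.94, 6.69 and 6.37 in PNET, 8.35 in the oligo-astrocytoma that AdCre induced, 8.62, 8.34 and 8.72 in the grafted ones, 8.10 and 8.03 in AdCre spheres and 8.22 in the AdGFP sphere. All PNET lay below all other samples, and Kif3a fell by 1.85 ± 0.18 in PNET against oligo-astrocytoma (adjusted p = 0.000302) and passed without any single sample. Ift88, a cilium transport protein, was higher in both tumour types than in AdCre spheres, by 2.08 ± 0.29 in PNET (adjusted p = 0.000824) and by 1.56 ± 0.28 in oligo-astrocytoma (adjusted p = 0.00326). Tulp3, which brings receptors into the cilium, fell by 1.48 ± 0.28 in oligo-astrocytoma against AdCre spheres (adjusted p = 0.00441), a call lost with the AdCre-induced tumour alone (-0.93). In PNET, Tulp3 fell by 1.60 ± 0.30 against the same spheres (adjusted p = 0.00307). Relative to the median named gene it fell by 1.13 in oligo-astrocytoma and by 1.24 in PNET. Prkacb, a catalytic subunit of protein kinase A, which marks Gli proteins for processing, fell by 1.96 ± 0.22 in PNET against AdCre spheres (adjusted p = 0.000265). In oligo-astrocytoma, Prkacb fell by 1.41 ± 0.20 against the same spheres (adjusted p = 0.00139). Relative to the median named gene it fell by 1.60 in PNET and by 1.05 in oligo-astrocytoma. Btrc, a ubiquitin ligase subunit that acts on the marked Gli proteins, was 0.74 ± 0.21 higher in PNET than in oligo-astrocytoma (adjusted p = 0.0461) and, of 7 fits without a sample, passed only without PNET replicate 2 (highest adjusted p = 0.127, without PNET replicate 1). The Btrc call was also lost in the compared groups only (0.0679) and with either kind of oligo-astrocytoma alone (0.0556 with the grafts and 0.421 with the AdCre-induced tumour).

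Of 13 measured genes known to respond to the pathway in some tissues, 0 rose and 2 fell in PNET against oligo-astrocytoma. Of all named genes 7.06% rose and 9.26% fell there, so the share called was near that of all genes. Ccnd1, the cyclin D1 of the G1 phase, read 6.56, 6.30 and 6.38 in PNET, 12.81 in the oligo-astrocytoma that AdCre induced, 10.57, 7.67 and 10.03 in the grafted ones, 11.14 and 11.90 in AdCre spheres and 12.07 in the AdGFP sphere. PNET lay below all other samples and the oligo-astrocytomas were widely spread, with grafted replicate 5 lowest. Ccnd1 fell by 3.86 ± 0.94 in PNET against oligo-astrocytoma (adjusted p = 0.0269), a call that, of 7 fits without a sample, held only without the AdCre-induced tumour or grafted replicate 5 (highest adjusted p = 0.0853, without PNET replicate 3), and by 5.10 ± 1.12 against AdCre spheres (adjusted p = 0.00689). Nkx2-2, a homeobox factor of ventral neural tube and oligodendrocyte precursors, fell by 2.80 ± 0.35 in PNET against oligo-astrocytoma (adjusted p = 0.00104) and by 2.23 ± 0.42 against AdCre spheres (adjusted p = 0.00326). The oligodendrocyte precursor list, of which 7 of 7 genes fell in PNET against oligo-astrocytoma, moved with it. Ccnd2, cyclin D2, fell by 2.77 ± 0.43 in oligo-astrocytoma (adjusted p = 0.00193) and by 1.68 ± 0.46 in PNET (adjusted p = 0.0183) against AdCre spheres. Relative to the median named gene it fell by 2.41 and 1.32. Mycn, the proto-oncogene of granule cell precursors, was named after its values were seen. It read 8.05, 9.24 and 9.46 in PNET, 6.67 in the oligo-astrocytoma that AdCre induced and 5.88, 6.41 and 8.98 in the grafted ones. In AdCre spheres it read 7.21 and 6.74, and in the AdGFP sphere 6.13. Mycn did not pass in PNET against oligo-astrocytoma (1.93 ± 0.67, adjusted p = 0.0985) or AdCre spheres (1.94 ± 0.80, adjusted p = 0.0882). Mycn overlapped between the tumour types, through grafted replicate 6.

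**Figure D4:**
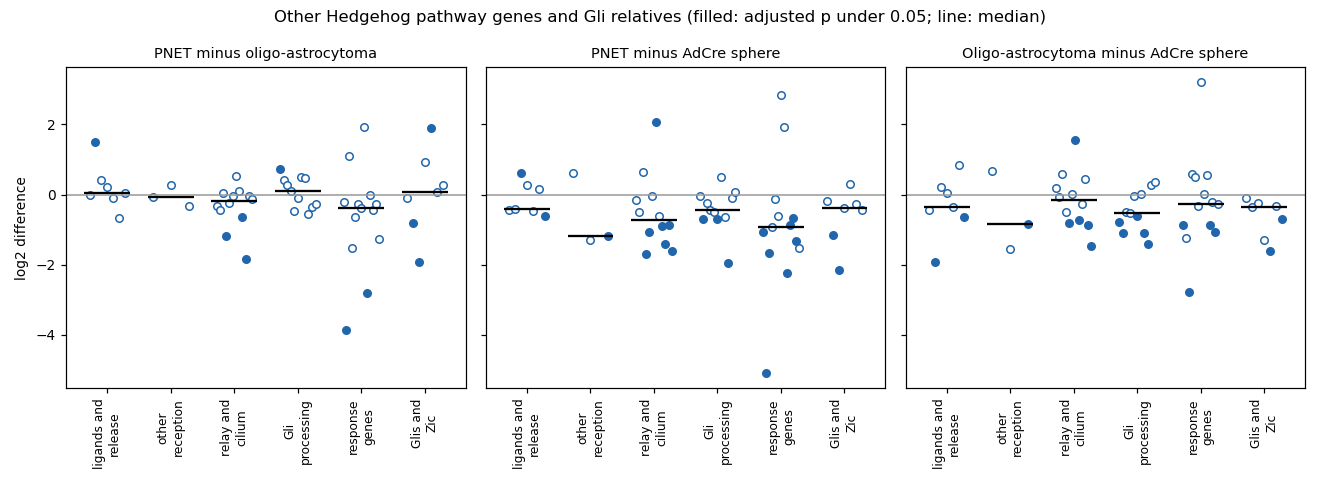
Log2 differences (vertical axis) of the other pathway genes by role, and of the related Glis and Zic factors, for PNET minus oligo-astrocytoma, PNET minus AdCre sphere and oligo-astrocytoma minus AdCre sphere; points are genes, filled where adjusted p is under 0.05, and lines are group medians. Ccnd1 is the lowest point of both PNET panels, at -3.86 and -5.10, and Ift88 is the filled relay gene above 0 in both panels against AdCre spheres.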

How the data were processed

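Expression in 10 mouse samples was measured on Affymetrix exon arrays after Trizol extraction of RNA. The deposited values are log2 summaries of 23238 transcript clusters made with Partek and RMA on mm8, per the submitters' processing notes; their versions were not given in the sources used here. RMA corrects background, normalizes between arrays and summarizes probes, yet the deposited columns differ in distribution. They were used as deposited, with no filter. Rows were named by a platform annotation (14939 with 1 symbol, 989 with several, 7310 with none), taking the row with the highest mean for a gene.

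Models were fitted with limma 3.58.1 (lmFit, eBayes; R 4.3.3) to all 10 samples in 4 groups, with both kinds of oligo-astrocytoma as 1 group, or in 5 groups within oligo-astrocytoma. Tests were two-sided, adjusted (Benjamini-Hochberg) across the 23238 transcript clusters, and 0.05 was the threshold. The members and lists were chosen with earlier results of these data known. Named genes were the members, Shh, Ihh, Dhh and Sufu (Ihh not analysed here), and up to 4 pathway genes per direction and comparison by size, Glis and Zic factors included. The models were tested on simulated data. Alternatives were quantile normalization, median centring, a mean of at least 5, trended and robust moderation, fits of the compared groups, either kind of oligo-astrocytoma alone, the mean of a gene's rows, a replicate block and leaving out each sample. The number of arrays limits the precision.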

Additional observations from a re-analysis of the deposited data

How the results depend on the processing

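Of the member differences that passed, the sign was the same in all 60 alternative values of PNET against oligo-astrocytoma, all 72 of PNET against AdCre spheres and all 42 of oligo-astrocytoma against AdCre spheres, and 49, 65 and 36 of these passed again. Between PNET and oligo-astrocytoma the 4 member calls numbered 1 (Cdon) with the AdCre-induced tumour alone and 2 to 4 without a sample, with 2 (Ptch1 and Cdon) without PNET replicate 2 or PNET replicate 3. The transcript clusters called, 2960, numbered 1182 with the AdCre-induced tumour alone and 1772 to 2781 without a sample, the lowest without PNET replicate 3. Between PNET and AdCre spheres, 8590 were called, and 5233 to 8088 without a sample, the lowest without AdCre sphere replicate 1. Between oligo-astrocytoma and AdCre spheres the 3 member calls numbered 1 (Gas1) after quantile normalization and 1 to 3 without a sample, the lowest without AdCre sphere replicate 1. There 7632 transcript clusters were called, 3433 with the AdCre-induced tumour alone and 3950 to 7234 without a sample, with 3950 and 4479 without AdCre sphere replicate 1 and 2. Between AdCre and AdGFP spheres 4 were called, and 0 after quantile normalization, with trended and robust moderation, in the compared groups only, with the replicate block, and 0 to 0 without a sample. Between AdCre-induced and grafted oligo-astrocytoma 70 were called, 0 in the compared groups only and 28 to 75 without a sample, with 28 and 32 without grafted replicate 5 and 6. PNET and AdCre spheres share the sample numbers 1 and 2, and the labels do not say whether these pair them. Same-numbered samples did not deviate together (correlations of -0.033 and -0.058). The 2 AdCre spheres deviate from their mean by equal and opposite amounts, so these values cannot decide whether the numbers pair samples. A replicate block left 4295 calls between PNET and AdCre spheres, among them 4 members, without Cdon (1.30, adjusted p = 0.0505) and Gli3 (1.40, adjusted p = 0.0815). Of other named genes it ended the calls of Hhat (adjusted p = 0.270), Sufu (0.0892) and Shh (0.196). No fit without the AdGFP sphere was possible for its comparison. The cause of these changes was not tested, beyond the smaller number of samples in fits that leave some out. Hhip in PNET lay below the arrays' lower quartiles, where differences may be understated.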

Other observations

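Relatives of the Gli factors, the Glis and Zic zinc finger proteins, were also measured, 7 of 8 listed. Zic2, expressed in cerebellar granule cell precursors and dorsal neural tube, read 8.69, 7.70 and 7.73 in PNET, 5.78 in the oligo-astrocytoma that AdCre induced, 6.03, 5.65 and 7.07 in the grafted ones, 7.77 and 7.71 in AdCre spheres and 7.34 in the AdGFP sphere. PNET and oligo-astrocytoma did not overlap, and Zic2 was 1.91 ± 0.37 higher in PNET (adjusted p = 0.00930), which passed without any single sample but not with the AdCre-induced tumour alone (2.25, adjusted p = 0.0603). In oligo-astrocytoma it fell by 1.61 ± 0.42 against AdCre spheres (adjusted p = 0.0170), but did not pass without AdCre sphere replicate 1 or 2 (adjusted p = 0.0922 and 0.0779), after quantile normalization (0.0799) or with the AdCre-induced tumour alone (0.0614). Glis3 read 5.16, 5.24 and 5.08 in PNET, 7.36 in the oligo-astrocytoma that AdCre induced, 6.25, 6.41 and 8.28 in the grafted ones, 7.35 and 7.27 in AdCre spheres and 6.42 in the AdGFP sphere. PNET lay below all other samples, and Glis3 fell by 1.92 ± 0.43 in PNET against oligo-astrocytoma (adjusted p = 0.0189), which did not pass without PNET replicate 2 or 3 (adjusted p = 0.0570 and 0.0693) or with the AdCre-induced tumour alone (0.111), and by 2.15 ± 0.51 against AdCre spheres (adjusted p = 0.0102), which did not pass without AdCre sphere replicate 1 (0.0597).

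Of 10 genes listed as markers of granule cell precursors, the cerebellar cells in which Hedgehog signalling is best known, 8 were measured. Atoh1 and Etv1 were not analysed here. Of the 8, 5 rose and 1 fell in PNET against oligo-astrocytoma, where 7.06% of named genes rose and 9.26% fell. The mean level of the 8 was 6.99 to 7.24 in PNET, 5.34 to 5.69 in oligo-astrocytomas, 6.46 to 6.52 in AdCre spheres and 6.29 in the AdGFP sphere. The list holds Zic2, given above, and genes that retina and pineal gland also express, such as Neurod1 and Pax6. Neurod1 rose most of the list, by 6.54 ± 0.33. Igf2, listed among the response genes, read 11.29, 7.53 and 6.89 in PNET, 12.11 in the oligo-astrocytoma that AdCre induced, 6.18, 7.27 and 10.25 in the grafted ones, 5.77 and 5.71 in AdCre spheres and 5.79 in the AdGFP sphere. It was named after its values were seen: the 3 spheres lay within 0.08 of each other while the range was 4.4 in PNET and 5.93 in oligo-astrocytoma.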
